A study of Mus musculus with 8 samples.

Results

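The 9 genes described here encode enzymes, or subunits of enzymes, of the mitochondrial citric acid cycle: Cs, Idh2, Idh3a, Ogdh, Dlst, Sucla2, Suclg1, Fh1 and Mdh2. They were taken by symbol from a table of 25929 genes, and all 9 passed the filter on low values that left 14442 genes for testing. RNA was sequenced from hearts of mice in 4 groups of 2 libraries, 8 in all. WT-Sham and WT-TAC were wild-type mice labelled C57BL/6. Fat1-Sham and Fat1-TAC were mice labelled as strain Fat-1, which carry the fat-1 transgene, a fatty acid desaturase of the worm Caenorhabditis elegans that makes n-3 from n-6 polyunsaturated fatty acids. TAC is transverse aortic constriction, a ligature on the aortic arch that loads the left ventricle with pressure, and Sham is the operation with the chest opened and no constriction. Surgery was done at an age of 3 months, and the study's abstract gives 8 weeks of constriction. The labels name ventricles as the tissue, and the study's methods name whole hearts. The labels call the libraries of a group independent samples without saying that each came from a separate mouse, so the p-values below measure the spread between libraries. A library is called by its group and its number, so WT-TAC1 is the first of the WT-TAC group.

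The citric acid cycle oxidises the acetyl group of acetyl-CoA to carbon dioxide in the mitochondrial matrix and passes the electrons to the respiratory chain as NADH and reduced flavin. Its acetyl-CoA comes from pyruvate, through the pyruvate dehydrogenase complex, and from fatty acids, through beta-oxidation. The adult heart is packed with mitochondria, takes most of its energy from fatty acids and expresses the genes of the cycle at high levels. Cycle genes are known targets of the coactivator PGC-1alpha (Ppargc1a) and of the estrogen-related receptors.

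All 9 genes were lowest in WT-TAC1, as described below, and so were 15.6% of all genes tested. Their promoters were searched for short motifs in windows of 250 bases before to 50 bases after each RefSeq start (GRCm38.p6). Shared regulation of the 9 genes was not tested. Windows were found for 8 of the 9 genes, all but Idh3a. The cAMP response element TGACGTCA, which reads the same on both strands, lay in the 1 window of Mdh2, in 3 overlapping windows among the 6 of Ogdh, and in 1.79% of all 32851 windows. Counted by gene, 2.03% of 27025 genes had it in at least 1 window, and a gene with more windows has more chances of a match. The 30 bases around it are shown for both genes, 5′ to 3′ on the plus strand, with the element in capitals, since these 2 genes share it:
Ogdh, chr11:6291535-6291564: acccaattctgTGACGTCAcgtcacgccca
Mdh2, chr5:135778511-135778540: ggagagaatcgTGACGTCAggcctcgctcg
The element began 51 bases before the first RefSeq start of Ogdh and 127 bases before that of Mdh2. The latter place lies inside the Mdh2 gene as GENCODE M21 annotates it, which starts at base 135778480. The estrogen-related receptor element TCAAGGTCA was found in 0 of the 8 genes and in 0.423% of windows (0.466% of genes), on either strand. Its inner part AAGGTCA, a half-site that any match of the full element also holds, was found for Ogdh and in 4.72% of windows (5.38% of genes). The GC box GGGCGG was found in 7 of the 8 genes, all but Suclg1, and in 35.7% of windows (38.2% of genes). The CCAAT box lay in windows of Cs, Idh2, Ogdh and Fh1 and in 37.4% of all windows (41.1% of genes). The ETS site CCGGAAG was found for Dlst and in 8.86% of windows (9.93% of genes). The E-box CACGTG was found for Ogdh and in 7.15% of windows (8.09% of genes). No other motifs were searched, and a match says only that the letters are present.

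The libraries held between 14163994 and 21218331 fragments, as recovered from the deposited FPKM values, and each of the 9 genes held between 4133 (Suclg1) and 42285 (Ogdh) fragments in a library. WT-TAC1 differed from the rest: on the first principal component (69.7% of variance) it had a score of 116.4, while the 7 remaining scores ran from -35.9 to 24.4. All 12 cardiomyocyte marker genes were detected in every library and were lowest in WT-TAC1, where their sum was 28692 FPKM against 52486 to 69154 in the others. The sum of 7 thymocyte genes was 1459 FPKM in WT-TAC1 and between 0.644 and 2.12 in the others. The sum of 8 airway epithelium genes reached 1567 and 3941 FPKM in WT-TAC1 and WT-TAC2, compared with 1.38 to 50.6 in the other groups. In each of the other 6 libraries between 0 and 4 of these 8 were listed at 0. Skeletal muscle genes summed to 148 FPKM in WT-TAC1 against 2.31 to 7.19. Transcripts encoded by mitochondrial DNA took 11.7% and 19.3% of the fragments of WT-TAC1 and WT-TAC2, and from 22.8% to 27.6% elsewhere. The part of these differences in the results below was not tested, and most of the results on WT-TAC named below are also given without WT-TAC1. In bulk tissue, fewer cells of a type and less RNA per cell cannot be told apart.

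All 9 genes were among the most abundant of the heart, between the 98.7th (Idh3a) and the 99.9th (Idh2) percentile of mean FPKM. FPKM divides fragments by a gene length, so it can be compared between genes. In the order of mean FPKM, Idh2 (1353) was followed by Mdh2 (952), Ogdh (678), Sucla2 (610), Dlst (422), Cs (372), Fh1 (364), Suclg1 (293) and Idh3a (242). Idh2 stood above Mdh2, and Mdh2 above Ogdh, in 8 of 8 libraries. The neighbours Ogdh and Sucla2 kept their order in 7 of 8 libraries, with a ratio of 1.11 ± 0.14 (SD, n = 8). Cs and Fh1 kept theirs in 5 of 8, with a ratio of 1.02 ± 0.111 (SD, n = 8), and so did not differ beyond their spread. The other neighbouring pairs kept their order in 8 of 8 libraries. The order also depended on the length. The length behind the deposited Sucla2 values was 977 bases, whereas its longest annotated transcript has 2229 bases. With the longest transcript of each gene, the first 3 places were unchanged at 770, 557 and 435 FPKM for Idh2, Mdh2 and Ogdh, Cs came next at 367 and Suclg1 last at 117.

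**Figure D1:**
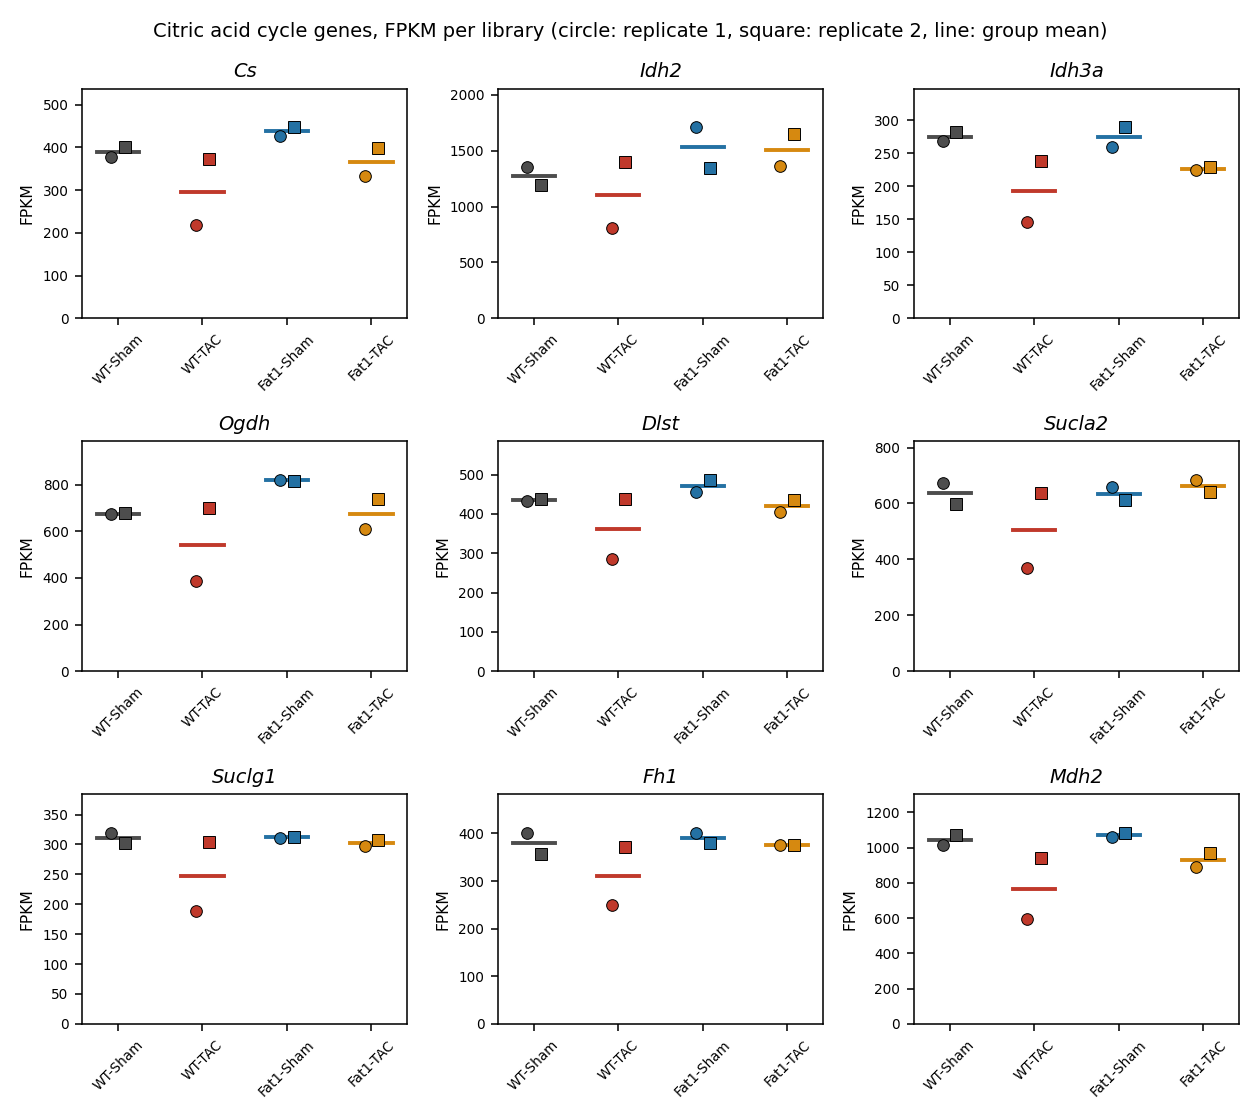
FPKM (y axes, from 0) of the 9 citric acid cycle genes in each library, by group (x axes), with replicate 1 as circles, replicate 2 as squares and the group mean as a line. WT-TAC1, the red circle, is the lowest of the 8 libraries in every panel, while WT-TAC2, the red square, lies near the sham libraries.

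Cs (chr10:128337734-128362479) encodes citrate synthase, which joins acetyl-CoA to oxaloacetate at the entry of the cycle and is a common marker of mitochondrial content. Its FPKM was 378 and 400 in WT-Sham1 and WT-Sham2, 218 and 372 in WT-TAC1 and WT-TAC2, 427 and 448 in Fat1-Sham1 and Fat1-Sham2, and 333 and 398 in Fat1-TAC1 and Fat1-TAC2. Both WT-TAC libraries lay under both WT-Sham libraries, WT-TAC2 by little. Both Fat1-Sham libraries were the highest of the 8.

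Idh2 (chr7:80094846-80115392, minus strand) encodes the mitochondrial isocitrate dehydrogenase that makes NADPH, and Idh3a (chr9:54586334-54604661) the catalytic subunit of the one that makes NADH. Idh2 was at 1357 and 1190 FPKM in WT-Sham, 805 and 1400 in WT-TAC, 1713 and 1349 in Fat1-Sham and 1364 and 1646 in Fat1-TAC. Its groups overlapped in each of the 4 comparisons below. Idh3a was at 268 and 283 FPKM in WT-Sham, 146 and 239 in WT-TAC, 259 and 290 in Fat1-Sham and 224 and 229 in Fat1-TAC. All 4 TAC libraries lay under all 4 sham libraries for Idh3a, in each genotype.

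Ogdh (chr11:6291633-6356642) and Dlst (chr12:85110833-85134845) encode the E1 and E2 subunits of the 2-oxoglutarate dehydrogenase complex, which makes succinyl-CoA. Ogdh was at 674 and 677 FPKM in WT-Sham, 386 and 700 in WT-TAC, 822 and 817 in Fat1-Sham and 610 and 739 in Fat1-TAC. Its 2 Fat1-Sham libraries were above the 6 others, and WT-TAC2 was above both WT-Sham libraries. Dlst was at 433 and 439 FPKM in WT-Sham, 284 and 437 in WT-TAC, 455 and 487 in Fat1-Sham and 406 and 436 in Fat1-TAC. WT-TAC2 lay between the WT-Sham libraries for Dlst.

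Sucla2 (chr14:73525319-73596142) encodes the ADP-forming beta subunit and Suclg1 (chr6:73248382-73276911) the alpha subunit of succinyl-CoA synthetase, the enzyme of substrate-level phosphorylation in the cycle. Sucla2 was at 673 and 599 FPKM in WT-Sham, 369 and 639 in WT-TAC, 660 and 611 in Fat1-Sham and 685 and 642 in Fat1-TAC. Outside WT-TAC1 its values lay between 599 and 685 FPKM, with WT-TAC2 within the range of WT-Sham. Suclg1 was at 320 and 302 FPKM in WT-Sham, 189 and 305 in WT-TAC, 311 and 313 in Fat1-Sham and 298 and 307 in Fat1-TAC. It was the gene with the narrowest range outside WT-TAC1.

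Fh1 (chr1:175600374-175625635, minus strand) encodes fumarase, which makes malate, and Mdh2 (chr5:135778480-135790398) the malate dehydrogenase that regenerates oxaloacetate. Fh1 was at 402 and 356 FPKM in WT-Sham, 250 and 371 in WT-TAC, 402 and 380 in Fat1-Sham and 376 and 375 in Fat1-TAC. Outside WT-TAC1 its values lay between 356 and 402 FPKM. Mdh2 was at 1014 and 1070 FPKM in WT-Sham, 593 and 941 in WT-TAC, 1061 and 1085 in Fat1-Sham and 887 and 968 in Fat1-TAC. As for Idh3a, the 4 TAC libraries of Mdh2 lay under the 4 sham libraries.

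WT-TAC was compared with WT-Sham to ask what pressure overload does to the heart's transcripts. The mean of WT-TAC was below that of WT-Sham for 9 of 9 genes, against 20.7% of all genes tested. This direction turned for 7 of the 9 when libraries were scaled to the cardiomyocyte genes and for 4 of the 9 without WT-TAC1. Of all genes 4.72% and 20.4% were lower in those fits, at medians of 0.81 and 0.20. The share of all genes depended on the scaling, since 9 of 9 genes were also lower with libraries scaled by the median of ratios, where 51.4% of all genes were, and with quantile normalization, where 59.2% were. With these the median of the 9 genes was -0.85 and -0.37. The log2 fold changes, on the scale of log2(FPKM + 1), lay between -0.56 for Idh3a and -0.26 for Idh2, with a median of -0.38 against 0.39 over all genes tested. None passed the thresholds of an adjusted p under 0.1 and a change over 1.5-fold. In the limma fit 0 of 9 were called, where 2 of 14442 genes (0.0138%) were called lower and 133 (0.921%) higher, and limma-voom on the recovered fragments also called 0 of 9. The smallest p belonged to Idh3a, at 275 ± 10.3 FPKM in WT-Sham and 193 ± 66.2 in WT-TAC (SD, n = 2 each), with a log2 fold change of -0.56 ± 0.23 (SE), an unadjusted limma p of 0.0467 and an adjusted p of 0.181. It was the only one of the 9 at an unadjusted limma p under 0.05. Mdh2 followed with -0.48 ± 0.24 (limma adjusted p = 0.206), and Cs with -0.45 ± 0.25 (limma adjusted p = 0.244). Without WT-TAC1 these values were -0.20 for Idh3a, -0.15 for Mdh2 and -0.06 for Cs. For Cs, Idh3a and Mdh2 both WT-TAC libraries lay under both WT-Sham libraries, a pattern found in 7.09% of all genes.

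The differences in wild-type mice rested on 1 of the 2 WT-TAC libraries. Without WT-TAC1 the median log2 fold change of the 9 genes was -0.03, 0 of 9 were called lower (0.0072% of all genes were), and the values ran from -0.20 for Idh3a to 0.14 for Idh2. Without WT-TAC2 the median was -0.78 and 9 of 9 were called lower in the limma fit, where 6.51% of all genes were called lower. In both fits the lone WT-TAC library is assumed to vary like the other groups. WT-TAC1 was the lowest of the 8 libraries for 9 of 9 genes, which held for 15.6% of all genes tested. The sum of the 9 genes was 3241 FPKM in WT-TAC1 and between 5184 and 6111 in the other 7 libraries.

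**Figure D2:**
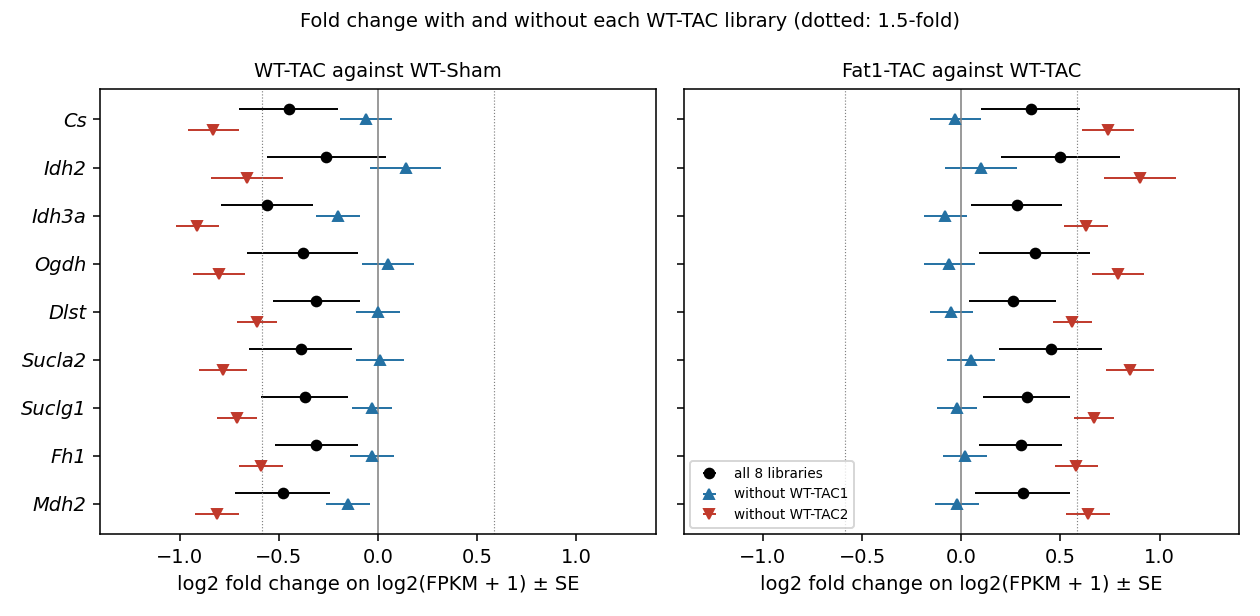
Log2 fold change on log2(FPKM + 1) with its standard error (x axes) for each cycle gene (y axis), in WT-TAC against WT-Sham (left) and Fat1-TAC against WT-TAC (right), with all 8 libraries (black), without WT-TAC1 (blue) and without WT-TAC2 (red). The medians of the blue points are -0.03 and -0.02 and those of the red points -0.78 and 0.67. With libraries scaled to cardiomyocyte genes (not drawn) the medians with all 8 libraries were 0.10 and -0.28, and those over all genes 0.81 and -0.94.

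The cycle genes and the cardiomyocyte genes were both lowest in WT-TAC1, as were 15.6% of all genes tested. So were 3 of 4 endothelium genes, whose sum was 164 FPKM there and 219 to 249 FPKM in the other libraries. All 4 macrophage genes were highest in WT-TAC1. On the log2 scale, centred on the mean of the 8 libraries, the 9 genes averaged -0.67 in WT-TAC1 and the 12 cardiomyocyte genes -0.87. In WT-TAC2 the same means were 0.05 and 0.02. The mean of the cycle genes minus that of the cardiomyocyte genes was 0.21 in WT-TAC1, between 0.02 and 0.10 in WT-Sham1, WT-Sham2, WT-TAC2 and Fat1-Sham1, and between -0.15 and -0.11 in Fat1-Sham2, Fat1-TAC1 and Fat1-TAC2. When each library was scaled to the cardiomyocyte genes, the median log2 fold change of the cycle genes became 0.10 in WT-TAC against WT-Sham. Over all genes tested the median became 0.81.

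**Figure D3:**
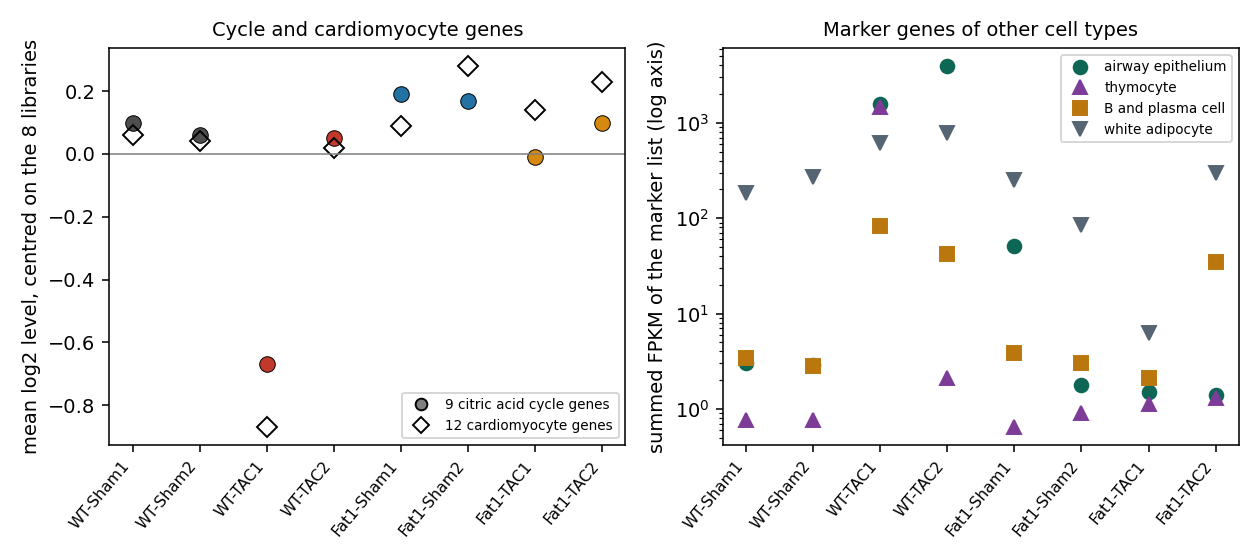
Left: mean log2 level of the 9 cycle genes (filled circles) and of 12 cardiomyocyte genes (open diamonds) in each library, centred on the 8 libraries. Right: summed FPKM, on a log axis, of marker lists of other cell types in the same libraries, with WT-TAC1 at 1459 FPKM for thymocyte genes and WT-TAC1 and WT-TAC2 at 1567 and 3941 FPKM for airway epithelium genes.

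Fat1-TAC was compared with WT-TAC to ask whether the fat-1 transgene changes the transcripts of the overloaded heart. This comparison shares the WT-TAC libraries with the one above. The mean of Fat1-TAC was above that of WT-TAC for 9 of 9 genes, while 78% of all genes tested were lower. The direction of the cycle genes turned for 9 of the 9 with libraries scaled to cardiomyocyte genes and for 6 of the 9 without WT-TAC1. Of all genes 96.6% and 76.6% were lower in those fits, at medians of -0.94 and -0.19. With the median of ratios 9 of 9 were also higher, at a median of 0.80, while 50.2% of all genes were lower, and with quantile normalization the median was 0.41, while 42.2% of all genes were lower. The log2 fold changes lay between 0.26 for Dlst and 0.50 for Idh2, with a median of 0.33 against -0.40 over all genes. In the limma fit 0 of 9 were called, where 5 of 14442 genes (0.0346%) were called higher, 0 of the 9 had an unadjusted p under 0.05, and limma-voom called 0 of 9. Sucla2 had the smallest p. Its FPKM was 504 ± 191 in WT-TAC and 664 ± 30.6 in Fat1-TAC (SD, n = 2 each), with a log2 fold change of 0.45 ± 0.26 (SE, limma adjusted p = 0.238). Idh2 had 0.50 ± 0.30 (limma adjusted p = 0.25). Without WT-TAC1 these were 0.05 for Sucla2 and 0.10 for Idh2. Both Fat1-TAC libraries were above both WT-TAC libraries for Sucla2 and Fh1, as for 9.33% of all genes. Without WT-TAC1 the median was -0.02 and 0 of 9 were called higher (0.0144% of all genes were). Without WT-TAC2 it was 0.67 and 7 of 9 were called higher in the limma fit, where 7.72% of all genes were.

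Within fat-1 mice, Fat1-TAC was compared with Fat1-Sham. The fold changes do not involve the WT-TAC libraries, but their limma errors are pooled over all 4 groups and so include the spread of WT-TAC. The mean of Fat1-TAC was lower for 8 of 9 genes, against 45.5% of all genes tested, with a median log2 fold change of -0.16 (all genes: 0.02), and only Idh2 among the 8 turned, to 0.02, under another scaling, the one without mitochondrially encoded genes. For 7 of 9 genes, all but Idh2 and Sucla2, both Fat1-TAC libraries lay under both Fat1-Sham libraries, a pattern found in 21.5% of all genes. The largest differences were those of Ogdh, Idh3a and Cs, at -0.29 ± 0.28, -0.27 ± 0.23 and -0.26 ± 0.25 (SE). Ogdh was at 820 ± 3.58 FPKM in Fat1-Sham and 674 ± 91.3 in Fat1-TAC (SD, n = 2 each). In the limma fit 0 of 9 were called, as were 0 of all genes in this direction (0%), 0 of the 9 had an unadjusted p under 0.05, and limma-voom called 0 of 9. The 95% interval of the Ogdh difference ran from -0.94 to 0.37 with all 8 libraries. Without WT-TAC1, which is in neither of these groups, the Ogdh difference of -0.29 had an error of 0.11 and an interval from -0.54 to -0.03. In that fit Cs, Idh3a, Ogdh and Mdh2, all lower, had an unadjusted limma p under 0.05 (4 of 9, against 11.2% of all genes in either direction), their adjusted p lay between 0.379 and 0.443, and 0 of 9 were called.

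Fat1-Sham was compared with WT-Sham to show the effect of the transgene without overload. The median log2 fold change of the 9 genes was 0.05 (all genes: -0.01), with values between -0.01 for Idh3a and 0.28 for Ogdh. In the limma fit 0 of 9 were called, as were 0 of all genes (0% in each direction), 0 of the 9 had an unadjusted p under 0.05, and limma-voom called 0 of 9. Cs, Ogdh and Dlst were higher in both Fat1-Sham libraries than in both WT-Sham libraries, as were 15.5% of all genes, and Dlst turned to -0.02 under the cardiomyocyte scaling. Ogdh was at 676 ± 2.18 FPKM in WT-Sham and 820 ± 3.58 in Fat1-Sham (SD, n = 2 each), a gap wider than the spread within these 2 groups, yet its limma log2 fold change of 0.28 ± 0.28 takes its error from all 4 groups, WT-TAC included. Without WT-TAC1 it was 0.28 ± 0.11, at a limma adjusted p of 0.938.

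The interaction of genotype and surgery tests whether the response to TAC differed between the genotypes. It was above 0 for 9 of 9 genes, while 77.4% of all genes were below 0, with a median of 0.25 (all genes: -0.37), between 0.09 for Ogdh and 0.45 for Sucla2. With the median of ratios the median was 0.68 and 49.8% of all genes were below 0, and with quantile normalization it was 0.34 and 42.4% were. In the limma fit 0 of 9 were called, where 1 of 14442 genes (0.00692%) was called higher, 0 of the 9 had an unadjusted p under 0.05, and limma-voom called 0 of 9. Without WT-TAC1 the median was -0.07 (all genes: -0.19, with 74.5% below 0) and 8 of the 9 values turned. With libraries scaled to cardiomyocyte genes it was -0.22 (all genes: -0.80, with 93.8% below 0) and 9 of the 9 turned. Without WT-TAC2 it was 0.60 and 5 of 9 were called higher, where 6.43% of all genes were.

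The mean effect of TAC over both genotypes, a comparison added after the data were seen, was below 0 for 9 of 9 genes, against 23.4% of all genes, with a median log2 fold change of -0.23 (all genes: 0.21). It turned for 5 of the 9 under the cardiomyocyte scaling and for 2 of the 9, Idh2 and Sucla2, without WT-TAC1. Of all genes 7.37% and 27.4% were below 0 in those fits, at medians of 0.42 and 0.11. With the median of ratios the median was -0.49 and 51.9% of all genes were below 0, and with quantile normalization it was -0.26 and 58.2% were. In the limma fit 0 of 9 were called, as were 0 of all genes (0% in each direction), and limma-voom called 0 of 9. Idh3a had -0.41 ± 0.16 (SE), with an unadjusted limma p of 0.0386, the only one of the 9 under 0.05, and an adjusted p of 0.307, and -0.24 without WT-TAC1. For Idh3a and Mdh2 the 4 TAC libraries lay under the 4 sham libraries, as for 1.45% of all genes.

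A ratio of 2 genes within a library does not depend on how that library was scaled. Such ratios were formed for 6 pairs of enzymes that share a substrate, a complex or a step, and were compared between 4 TAC and 4 sham libraries and between 4 fat-1 and 4 wild-type libraries, 12 tests in all. None had a p under 0.05 in the two-sided exact permutation test, which cannot go below 0.0286 with 4 against 4. Sucla2 to Suclg1, the beta and alpha subunits of succinyl-CoA synthetase, ran from 1.95 to 2.30, with WT-TAC1 at 1.95 beside Fat1-Sham2 at 1.95. WT-TAC1 was thus close to another library for this ratio, unlike for the FPKM values.

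The smallest p among the ratios belonged to Fh1 over Mdh2, the enzymes that make malate and use it. The ratio was 0.396 and 0.333 in WT-Sham, 0.422 and 0.394 in WT-TAC, 0.379 and 0.350 in Fat1-Sham and 0.424 and 0.387 in Fat1-TAC. The TAC libraries lay higher apart from an overlap with WT-Sham1, by 0.16 on the log2 scale (exact permutation p = 0.0857, Benjamini-Hochberg adjusted p = 0.48, n = 4 each). Idh2 over Idh3a, the NADPH-forming over the NADH-forming isocitrate dehydrogenase, was 5.06 and 4.21 in WT-Sham, 5.52 and 5.85 in WT-TAC, 6.61 and 4.65 in Fat1-Sham and 6.08 and 7.18 in Fat1-TAC. It was higher by 0.28 on the log2 scale with TAC (exact permutation p = 0.143, adjusted p = 0.48, n = 4 each) and by 0.24 in fat-1 mice (exact permutation p = 0.2, adjusted p = 0.48, n = 4 each). Ogdh over Dlst was higher in fat-1 mice by 0.14 on the log2 scale (exact permutation p = 0.114, adjusted p = 0.48, n = 4 each), and WT-TAC1 at 1.36 was its lowest value.

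**Figure D4:**
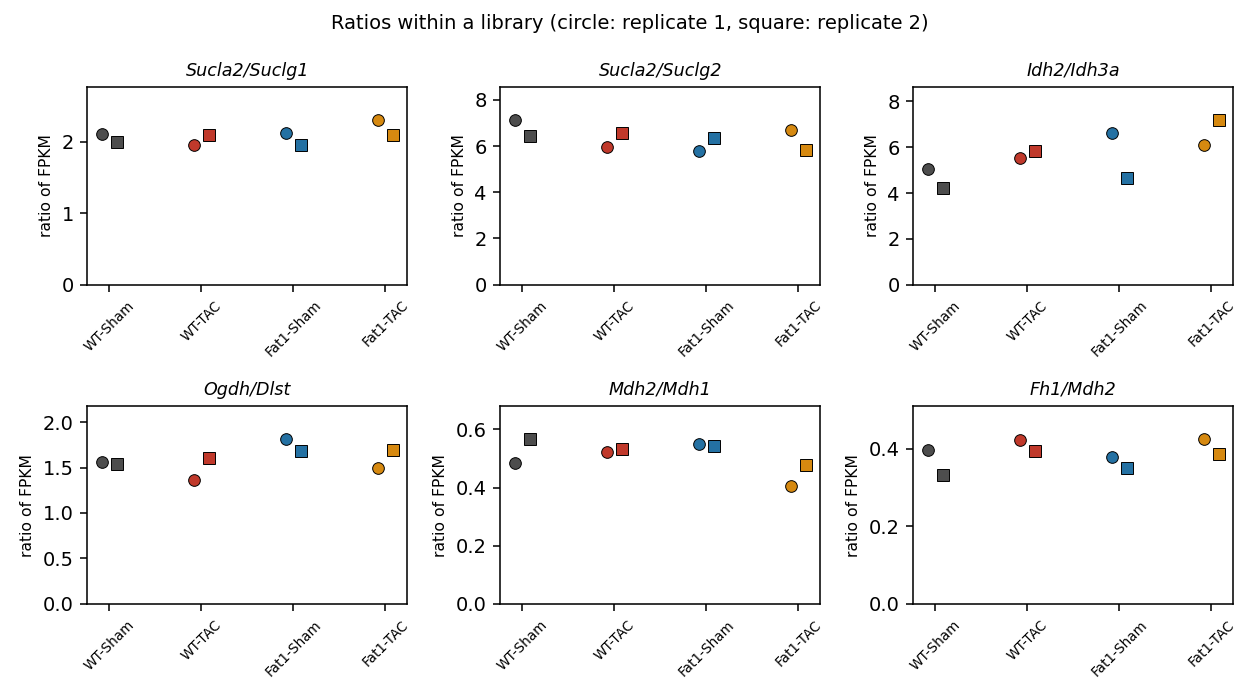
Ratios of FPKM between 2 enzymes within each library (y axes, from 0), by group (x axes), with replicate 1 as circles and replicate 2 as squares. Sucla2/Suclg1 stays between 1.95 and 2.30, and the 4 TAC libraries of Fh1/Mdh2 overlap with WT-Sham1 at 0.396.

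The other subunits of the cycle enzymes had the same direction in WT-TAC against WT-Sham. Of 8 further genes (Idh3b, Idh3g, Dld, Suclg2 and the succinate dehydrogenase genes Sdha, Sdhb, Sdhc and Sdhd), 8 had a lower mean, 0 were called and the median log2 fold change was -0.34, while 5 of the 8 were lower without WT-TAC1 (median -0.02) and 1 of the 8 under the cardiomyocyte scaling (median 0.13). The lowest was Sdhb, the iron-sulfur subunit of succinate dehydrogenase, at -0.55 ± 0.22 (limma adjusted p = 0.179), with 663 and 607 FPKM in WT-Sham and 348 and 538 in WT-TAC. Without WT-TAC1 the Sdhb difference was -0.24 (limma adjusted p = 0.315). The highest was Suclg2, the GDP-forming beta subunit of succinyl-CoA synthetase, at -0.27, which turned to 0.05 without WT-TAC1 and to 0.20 under the cardiomyocyte scaling. Fatty acid oxidation genes had a median of -0.45, with 14 of 16 lower, and 6 tested core subunits of complex I a median of -0.46, with 6 of 6 lower. Without WT-TAC1 these medians were 0.00, with 8 of 16 lower, and -0.11, with 6 of 6 lower, and under the cardiomyocyte scaling 0.03 and 0.02. A further core subunit, Ndufs3, which every respiring cell uses, was listed at 0 in 6 of 8 libraries and under 0.08 FPKM in WT-Sham2 and WT-TAC2, so that a 0 in this table can be a failed estimate.

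The pyruvate dehydrogenase complex feeds the cycle, and its kinases switch it off by phosphorylation. Of its 11 listed genes 0 were called in WT-TAC against WT-Sham, 7 had a lower mean (4 without WT-TAC1), and 1 had an unadjusted limma p under 0.05 with a change over 1.5-fold, where 1.11% of all genes were lower by that rule. That gene was Pdk4, the kinase that is known to rise with fatty acid use and fasting. Pdk4 was at 172 and 226 FPKM in WT-Sham, 69.9 and 90.8 in WT-TAC, 256 and 352 in Fat1-Sham and 196 and 80.7 in Fat1-TAC. TAC libraries lay under the sham libraries of their genotype, although Fat1-TAC1 lay above WT-Sham1. The log2 fold change was -1.30 ± 0.40 in wild-type mice (unadjusted limma p of 0.0144, adjusted p of 0.175) and -1.25 ± 0.40 in fat-1 mice (unadjusted limma p of 0.0169, adjusted p of 1.0). Unlike the cycle genes, Pdk4 kept a difference of -1.11 without WT-TAC1, at an adjusted limma p of 0.309. In fat-1 mice the Pdk4 difference ran from -1.88, when Fat1-TAC1 was left out, to -0.62, when Fat1-TAC2 was. The highest of this list was Pdk3, a kinase of low level in the heart, at 2.72 and 5.31 FPKM in WT-Sham and 15.4 and 5.58 in WT-TAC (log2 fold change 1.10). Without WT-TAC1 its difference was 0.44.

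Genes of citrate export and cleavage had their highest values in WT-TAC. Acly, the ATP citrate lyase that cleaves exported citrate to acetyl-CoA for fatty acid synthesis, was at 39.6 and 37.7 FPKM in WT-Sham, 103 and 160 in WT-TAC, 48.0 and 24.6 in Fat1-Sham and 18.3 and 48.0 in Fat1-TAC. Both WT-TAC libraries were above the 6 others, and the share of all genes with that order was not counted. Its log2 fold change was 1.71 ± 0.48 against WT-Sham (unadjusted limma p of 0.00903, adjusted p of 0.175) and -2.07 ± 0.48 in Fat1-TAC against WT-TAC (unadjusted limma p of 0.00337, adjusted p of 0.125), and it was not called in either. Without WT-TAC1 these were 2.02 and -2.39. At an unadjusted limma p under 0.05 with a change over 1.5-fold, 22.7% of all genes were higher in WT-TAC against WT-Sham. By the same rule 23.5% were lower in Fat1-TAC against WT-TAC. With the median of ratios these shares were 6.75% and 7.28%. Slc25a1, the carrier that exports citrate from the mitochondrion, was at 25.6 and 28.8 FPKM in WT-Sham, 61.1 and 121 in WT-TAC, 35.0 and 10.7 in Fat1-Sham and 9.67 and 39.2 in Fat1-TAC. It had the same order of libraries at the top, with a log2 fold change of 1.63 ± 0.72 (limma adjusted p = 0.186), or 2.12 without WT-TAC1. The white adipocyte genes, which mark cells that synthesise fat, summed to 182 and 269 FPKM in WT-Sham, 612 and 792 in WT-TAC, 254 and 85.5 in Fat1-Sham and 6.23 and 295 in Fat1-TAC. They were thus also highest in WT-TAC2 and WT-TAC1 and lowest in Fat1-TAC1, and their part in the values of Acly and Slc25a1 was not tested.

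**Figure D5:**
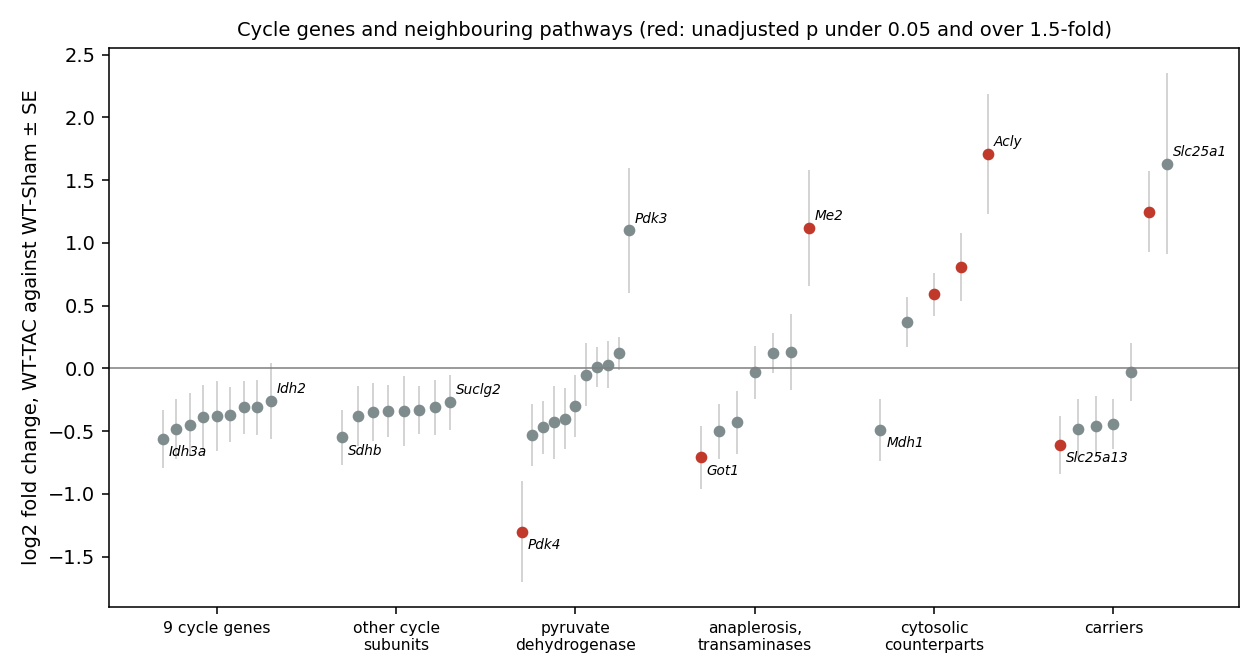
Log2 fold change of WT-TAC against WT-Sham with its standard error (y axis) for the 9 cycle genes and 5 lists of neighbouring genes (x axis), sorted within each list and named at its ends. Red points have an unadjusted p under 0.05 and a change over 1.5-fold, gray points do not, and no gene shown passed the adjusted threshold. The 9 cycle genes lie between -0.56 and -0.26, values of which 7 turn when libraries are scaled to cardiomyocyte genes. Of all genes 4.72% are lower under that scaling.

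Of the 5 cytosolic counterparts (Idh1, Aco1, Mdh1, Acly and Acss2), 0 were called and 3 had a higher WT-TAC mean at an unadjusted limma p under 0.05 with a change over 1.5-fold, against 22.7% of all genes. Without WT-TAC1 3 were also higher by that rule, where 8.02% of all genes were, while 1 was with the median of ratios (6.75% of all genes) and 1 with quantile normalization (4.5%). With all libraries as deposited they were Acly, Acss2 and Aco1, of which the last 2 are named after their values were seen. The lowest of them was Mdh1, the malate dehydrogenase of the malate-aspartate shuttle, at -0.49 ± 0.25 (limma adjusted p = 0.212), or -0.18 without WT-TAC1. Among 7 mitochondrial carriers 0 were called, and Slc25a13, an aspartate-glutamate carrier of the same shuttle, was lowest at -0.61 ± 0.23 (limma adjusted p = 0.177). By the unadjusted rule 1 carrier was higher and 1 lower, where 22.7% and 1.11% of all genes were. The higher one was Slc25a10, named after its values were seen, at 1.25 ± 0.32 (limma adjusted p = 0.175). It was at 10.1 and 12.1 FPKM in WT-Sham and 24.9 and 30.4 in WT-TAC. Among 7 tested genes of anaplerosis and transamination 0 were called, and 1 was higher and 1 lower by the unadjusted rule. Got1, the cytosolic aspartate transaminase, was lowest at -0.71 ± 0.25 (limma adjusted p = 0.175), and Me2, a mitochondrial malic enzyme, highest at 1.12 ± 0.46 (limma adjusted p = 0.18). Me2 was at 20.0 FPKM in WT-TAC1 and between 3.37 and 6.06 in the other 7 libraries. Without WT-TAC1 the differences of Slc25a13, Got1 and Me2 were -0.25, -0.34 and 0.33. In fat-1 mice Mpc1, a subunit of the mitochondrial pyruvate carrier that was chosen after its values were seen, was at 15.9 and 15.8 FPKM in Fat1-Sham and 24.7 and 28.9 in Fat1-TAC (log2 fold change 0.72 ± 0.23, unadjusted limma p of 0.0173, adjusted p of 1.0). It was at 19.9 and 23.8 FPKM in WT-Sham and 16.9 and 26.7 in WT-TAC, where the groups overlapped.

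Among 8 regulators of mitochondrial genes 0 were called in WT-TAC against WT-Sham, and 4 had a lower and 4 a higher mean, with a median log2 fold change of -0.06 (0.02 without WT-TAC1). The median of ratios and quantile normalization each gave 7 of 8 lower, since Ppargc1b, Gabpa and Tfam turned. Nrf1, a transcription factor of nuclear genes for mitochondrial proteins, was highest at 1.06 ± 0.51 (limma adjusted p = 0.202), or 0.16 without WT-TAC1. The other higher ones were Ppargc1b at 0.40, Gabpa at 0.34 and Tfam at 0.17, which without WT-TAC1 were at 0.85, 0.11 and 0.01. Ppargc1a was at 70.8 and 30.9 FPKM in WT-Sham, 16.5 and 31.2 in WT-TAC, 46.2 and 44.9 in Fat1-Sham and 25.2 and 26.6 in Fat1-TAC. Its lower sham value of 30.9 overlapped with WT-TAC2, with a difference of -1.01 ± 0.41 on the log2 scale (limma adjusted p = 0.179), or -0.57 without WT-TAC1. Esrra, the estrogen-related receptor alpha, was at 180 and 192 FPKM in WT-Sham, 122 and 187 in WT-TAC, 217 and 223 in Fat1-Sham and 181 and 183 in Fat1-TAC. Its profile over the libraries, with WT-TAC1 lowest and Fat1-Sham highest, was also that of Cs, Ogdh and Dlst. WT-TAC1 was the lowest library for 15.6% of all genes tested, and the share with the whole profile was not counted. A link between Esrra and the cycle genes was not tested.

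Among 6897 genes with a mean of 10 FPKM or more, the 4 outside the lists above whose log2(FPKM + 1) was most like the mean level of the 9 genes were Rilpl1, Pgm1, Fsd2 and Atp5b, with a Pearson r between 0.993 and 0.994 over the 8 libraries. Atp5b encodes the beta subunit of the mitochondrial ATP synthase. Fsd2 was at 36.7 FPKM in WT-TAC1 and between 68.6 and 84.5 in the others, and Atp5b at 3620 against 5470 to 6370. An r above 0.9 was found for 534 of the 6897 genes (7.74%, genes of the lists included), and all of these correlations share WT-TAC1, the lowest library of the 9 genes.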

How the data were processed

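RNA-sequencing data of 8 heart libraries, 2 per group, were analysed. The authors deposited FPKM values (fragments scaled by gene length and library size) for 25929 genes, and HISAT2 and the mouse build GRCm38 (mm10) are named in the submitters' processing notes. The counting program and the annotation are not given in the sources used here. Whole fragments were recovered from the FPKM for 25928 genes, within 0.01 of a whole number, and served for depth and 1 alternative. Coordinates were those of GENCODE M21 (GRCm38).

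A linear model (limma version 3.58.1 under R 4.3.3, trended eBayes) was fitted to log2(FPKM + 1) of the genes that reached 1 FPKM in 2 or more libraries, with a mean for each of the 4 groups, after a test on simulated data. Calls needed a Benjamini-Hochberg p, adjusted over all genes tested, under 0.1 together with a change over 1.5-fold. A second rule took the unadjusted p at 0.05 in its place. Errors of fold changes are limma standard errors, and SDs are between libraries. Ratios were compared by exact permutation tests (SciPy 1.17.1).

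All 9 genes are named. From each list of further cycle, pyruvate dehydrogenase, anaplerosis, cytosolic and carrier genes those with the highest and the lowest fold change of WT-TAC against WT-Sham are named, and fatty acid oxidation and complex I are given by counts and medians. Regulators are given by values, and other named genes were chosen after their values were seen. The genes and lists were chosen with earlier results of these data known. Pc and Rag2 were not analysed here, and some further results are not reported here. Scaling, filter, pseudocount, test, block and left-out libraries were varied.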

Additional observations from a re-analysis of the deposited data

How the results depend on the processing

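Each group had 2 libraries, and each of the 9 genes held at least 4133 fragments in a library. The 0 calls in the 6 comparisons held under the scalings, filters and pseudocounts tried, limma-voom and each left-out library except WT-TAC2. The fits of 2 groups alone and the per-gene test, run for the 4 comparisons of 2 groups but not for the interaction or the mean effect, also gave 0. The replicate numbers did not pair the samples (correlations of -0.14 to 0.024 between deviations), and with the replicate block the median of WT-TAC against WT-Sham stayed at -0.38 with 0 called, as it did in the other comparisons.

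Scaling by the median of ratios, which moved the median of all genes in WT-TAC against WT-Sham from 0.39 to -0.02, gave medians of the 9 genes of -0.85 there, 0.80 in Fat1-TAC against WT-TAC, 0.68 in the interaction and -0.49 in the mean effect of TAC. At an unadjusted p under 0.05 with a 1.5-fold change it counted 3 of the 9 for WT-TAC against WT-Sham (7.73% of all genes were lower by that rule) and 1 for the mean effect (2.11%). In the former quantile normalization counted 1 (7.93%) and FPKM without mitochondrially encoded genes 2 (2.87%). Over all genes as deposited that rule gave 3275 higher and 160 lower in WT-TAC against WT-Sham, and 967 and 1107 with the median of ratios. With libraries scaled to cardiomyocyte genes the medians were 0.10, -0.28, -0.22 and 0.00 (all genes: 0.81, -0.94, -0.80 and 0.42). Over the fits that left out 1 library, the genes called numbered 0 to 9 in WT-TAC against WT-Sham, 0 to 7 in Fat1-TAC against WT-TAC, 0 to 5 in the interaction and 0 to 1 in the mean effect, by the adjusted and the unadjusted rule, and the medians ran from -0.78 to -0.03, -0.02 to 0.67, -0.07 to 0.60 and -0.39 to -0.08. The log2 ratio of Sucla2 to Suclg2 with TAC ran from -0.09 to 0.01 and that of Fh1 to Mdh2 in fat-1 mice from -0.07 to 0.04. The cause was not tested.

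With libraries scaled to cardiomyocyte genes, the sign turned in WT-TAC against WT-Sham for Cs (0.03), Idh2 (0.22), Ogdh (0.10), Dlst (0.17), Sucla2 (0.09), Suclg1 (0.11), Fh1 (0.17), Suclg2 (0.20) and Esrra (0.18). In Fat1-TAC against WT-TAC it turned for Cs (-0.26), Idh2 (-0.11), Idh3a (-0.33), Ogdh (-0.24), Dlst (-0.35), Sucla2 (-0.16), Suclg1 (-0.28), Fh1 (-0.31) and Mdh2 (-0.30). In Fat1-Sham against WT-Sham it turned for Dlst (-0.02), Suclg1 (-0.13), Fh1 (-0.09) and Mdh2 (-0.09). In the interaction it turned for Cs (-0.29), Idh2 (-0.24), Idh3a (-0.19), Ogdh (-0.39), Dlst (-0.33), Sucla2 (-0.03), Suclg1 (-0.15), Fh1 (-0.22) and Mdh2 (-0.21). In the mean effect of TAC it turned for Idh2 (0.10), Dlst (0.00), Sucla2 (0.08), Suclg1 (0.03) and Fh1 (0.05). With scaling by the median of ratios, the sign turned in Fat1-Sham against WT-Sham for Idh3a (0.03) and Sucla2 (0.04). In WT-TAC against WT-Sham it turned for Ppargc1b (-0.02), Gabpa (-0.12) and Tfam (-0.29). With quantile normalization, the sign turned there for Ppargc1b (-0.16), Gabpa (-0.04) and Tfam (-0.22), and in Fat1-Sham against WT-Sham for Idh3a (0.00) and Suclg1 (-0.01). With FPKM rescaled without mitochondrially encoded genes, the sign turned in Fat1-TAC against Fat1-Sham for Idh2 (0.02). In Fat1-Sham against WT-Sham it turned for Suclg1 (-0.03). Over the fits that left out 1 library, values that changed sign ranged in WT-TAC against WT-Sham for Idh2 -0.66 to 0.14, Ogdh -0.80 to 0.05, Dlst -0.61 to 0.00, Sucla2 -0.78 to 0.01, Suclg2 -0.59 to 0.05, Esrra -0.60 to 0.01 and Ppargc1b -0.05 to 0.85. In Fat1-TAC against WT-TAC the ranges were Cs -0.03 to 0.74, Idh3a -0.08 to 0.63, Ogdh -0.06 to 0.79, Dlst -0.05 to 0.56, Suclg1 -0.02 to 0.67 and Mdh2 -0.02 to 0.64. In Fat1-TAC against Fat1-Sham the range was -0.19 to 0.15 for Idh2. In Fat1-Sham against WT-Sham the ranges were Idh3a -0.09 to 0.08, Sucla2 -0.08 to 0.08, Suclg1 -0.04 to 0.05 and Fh1 -0.04 to 0.13. In the interaction the ranges were Cs -0.20 to 0.57, Idh2 -0.16 to 0.64, Idh3a -0.07 to 0.64, Ogdh -0.34 to 0.52, Dlst -0.16 to 0.45, Suclg1 -0.02 to 0.67, Fh1 -0.03 to 0.54 and Mdh2 -0.06 to 0.60. In the mean effect of TAC the ranges were Idh2 -0.34 to 0.06 and Sucla2 -0.36 to 0.04.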
